A study of Mus musculus with 6 samples.

Results

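The 37 genes described here are members of the p53 family, targets that p53 is known to switch on, and regulators and executioners of apoptosis. They were chosen by name, with earlier results of these data known. All 37 symbols were found among the 24495 of the deposited gene count table. RNA came from mouse spermatogonial stem cells, which renew themselves and give rise to sperm, isolated from DBA2 animals at postnatal days 5 to 8 and kept in culture. The EPZ5676 group received 2 uM EPZ5676, an inhibitor of the histone H3 lysine methyltransferase DOT1L also known as pinometostat, for 2 weeks, and the ethanol group received 0.2% ethanol as its control for the same 2 weeks. Whether the EPZ5676 cultures also carried ethanol is not given in the sources used here. Each group had 3 libraries, numbered 1 to 3, which the series' design text calls biological triplicates. Nothing says that they came from separate animals or cultures, so p-values measure the spread between these libraries. The comparison asks how the p53 and apoptosis genes stand in germline stem cells after DOT1L inhibition.

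The transcription factor p53, encoded by Trp53, is held at a low protein level by MDM2, a ubiquitin ligase, and by its relative MDM4. DNA damage and other stresses release p53, which then activates genes for cell cycle arrest, DNA repair and death, and also Mdm2 itself, so that the RNA of its targets serves as a readout of its activity while p53 itself is controlled largely as a protein. In the mitochondrial route to death, BH3-only proteins activate BAX and BAK1 or block the survival proteins BCL2, BCL-XL (Bcl2l1) and MCL1, and cytochrome c then assembles APAF1 and caspase 9 into the apoptosome. Male germ cells are known for p53-dependent and p53-independent apoptosis after DNA damage, and for the dependence of the testis on Bax and Bcl2l1.

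Gene counts totalled 19866337 to 54645903 in the EPZ5676 libraries and 17784332 to 21046473 in the ethanol libraries. EPZ5676 replicate 2 was the deepest. The first principal component of log2 levels, with 50.9% of the variance, set both replicate 2 libraries apart, at 21.3 in the EPZ5676 group and 33.2 in the ethanol group, against -15.1 to -11.9 for the other 4 libraries. All 15 spermatogonial markers, among them Ddx4, Dazl, Zbtb16 and Gfra1, were detected in every library, and their summed level was 3799 to 3911 CPM (TMM-normalised counts scaled to library size) in EPZ5676 cultures and 3597 to 4058 CPM in ethanol cultures. Dazl was the largest, and the other 14 summed to 1982 to 2230 CPM with EPZ5676 and 1923 to 2373 CPM with ethanol. Gfra1 was lower without overlap, at 44.0 to 59.3 CPM with EPZ5676 and 66.5 to 73.0 CPM with ethanol. Etv5 was higher without overlap, at 94.3 to 105 CPM with EPZ5676 and 84.3 to 92.8 CPM with ethanol. The groups of the remaining spermatogonial markers overlapped. The 26 fibroblast markers were also all detected in every library, and 0 of them passed the test described below in either fit. Their sum was 1721, 2238 and 1830 CPM in EPZ5676 replicates 1, 2 and 3. In ethanol replicates 1, 2 and 3 it was 1684, 2931 and 1833 CPM, so it was highest in replicate 2 of each group. The largest, Fn1, was at 655, 666 and 730 CPM in EPZ5676 replicates 1, 2 and 3. In ethanol replicates 1, 2 and 3 Fn1 was at 558, 888 and 604 CPM. The other 25 summed to 1067 to 1572 CPM with EPZ5676 and 1126 to 2043 CPM with ethanol. The groups of that sum overlapped, but each EPZ5676 library was below its same-numbered ethanol library. Summed markers were far lower for Sertoli cells, at 32.7 to 41.0 CPM with EPZ5676 and 34.1 to 47.8 CPM with ethanol, and for macrophages, at 14.3 to 19.3 CPM and 16.2 to 20.6 CPM in those groups. The sums of 10 endothelial markers did not overlap, at 41.7 to 45.6 CPM with EPZ5676 and 48.7 to 55.1 CPM with ethanol, but without Flt1 the other 9 did, at 22.0 to 23.0 CPM with EPZ5676 and 22.3 to 25.3 CPM with ethanol. The sum of 7 Leydig markers, 5.70 to 7.07 CPM with EPZ5676 and 8.21 to 10.6 CPM with ethanol, was mostly Star. The other 6 overlapped at 0.563 to 0.828 CPM with EPZ5676 and 0.712 to 1.28 CPM with ethanol, with Lhcgr at 0 in every library. The part of these cell types in the results below was not tested. The RNA is from bulk cultures, in which fewer cells of a type and less RNA per cell cannot be told apart.

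Promoters of p53 targets can carry a p53 response element, a pair of 10-base half-sites. RefSeq promoter windows of GRCm38.p6, 250 bases before to 50 bases after a gene's start, were at hand for 28 of the 37 members, in 39 windows. They were searched for 2 half-sites of the p53 consensus with a spacer of 0 to 13 bases, with the fixed C and G of each half-site in place and at most 2 mismatches over the pair. The consensus reads the same on both strands, and where several pairs overlapped the one with the fewest mismatches is given. A pair was found for 5 of the 28 members (17.9%), against 4.71% of the 27025 genes in the table. By window it was found in 5 of the 39 member windows, against 4.085% of all 32851 windows. Many members were chosen by name as known p53 targets, so these shares are a description and no independent evidence. Sequence outside these windows was not searched, so a member without a pair, such as Mdm2, is not shown to lack a response element. The upstream parts of the windows of Ccng1 and Bax are shown because Ccng1 held the pair nearest to the consensus and because Bax is the member with a pair whose groups did not overlap. Both lie on the minus strand and are written 5′ to 3′ along the gene, with the half-sites in capitals. The Ccng1 stretch is chr11:40755287-40755536, with a pair 195 to 176 bases before the start that has 1 mismatch and no spacer. The Bax stretch is chr7:45466899-45467148, with a pair 201 to 181 bases before the start that has 2 mismatches and a spacer of 1 base.
Ccng1: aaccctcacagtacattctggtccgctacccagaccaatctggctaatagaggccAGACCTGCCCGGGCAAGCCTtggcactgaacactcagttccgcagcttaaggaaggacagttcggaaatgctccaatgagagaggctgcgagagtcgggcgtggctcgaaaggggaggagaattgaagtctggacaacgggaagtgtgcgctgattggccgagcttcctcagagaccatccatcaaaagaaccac
Bax: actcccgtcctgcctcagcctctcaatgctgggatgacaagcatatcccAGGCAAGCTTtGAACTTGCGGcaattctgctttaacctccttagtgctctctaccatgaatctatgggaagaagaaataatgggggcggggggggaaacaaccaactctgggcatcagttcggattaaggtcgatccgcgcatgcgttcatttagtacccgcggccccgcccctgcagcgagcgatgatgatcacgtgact
The pairs of the other 3 members had 2 mismatches each, and their spacers are in lower case. They lie at chr4:154097220-154097239 on the minus strand for Trp73, at chr6:67037438-67037463 on the minus strand for Gadd45a and at chr10:41887253-41887275 on the plus strand for Sesn1.
Trp73: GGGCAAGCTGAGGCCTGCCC
Gadd45a: GGACCTGGTTggctgaGGGCTAGCCC
Sesn1: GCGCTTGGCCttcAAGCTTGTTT
A match is a description of letters and not of a bound site. The values of these 5 genes follow with their roles.

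None of the 35 tested members passed the test between EPZ5676 and ethanol cultures, and without the replicate block 0 of all tested genes did, so the count says nothing particular to them. Of the 37 members, all had counts in every library and 35 passed the filter on low counts; Trp73 and Gdf15 did not. The quasi-likelihood test of edgeR, with p-values adjusted by Benjamini-Hochberg over all 14855 tested genes, called 0 of the 35 higher and 0 lower, against a background of 0% of all tested genes in either direction. The smallest adjusted p among the members was 0.674. At an unadjusted p under 0.05 there were also 0 of 35, against 7.41% of all tested genes (3.84% higher and 3.57% lower). With the replicate number as a block, the same test again called 0 of 35, against 0.323% of all tested genes called higher and 0.33% called lower (0.653% in all), and the smallest adjusted p was 0.164. Libraries with the same number deviated together from their group means, most clearly those of replicate 2, which is why the block is given. limma-voom called 0 genes in all, while DESeq2 called 50 of all genes without the block and 293 with it, with 0 members among them. Without both replicate 2 libraries edgeR called 10 genes, again with 0 members among them.

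A test that misses its threshold does not show that levels were alike, so the width of each interval matters. The 95% interval of the log2 fold change (EPZ5676 over ethanol) held 0 for all 35 tested members, and reached a median of 0.31 on the log2 scale to either side. For 24 of the 35 (68.6%) the interval lay wholly within a 1.5-fold change in either direction, as it did for 60.5% of all tested genes. For 32 of the 35 (91.4%) it lay within a 2-fold change, against 85.1% of all tested genes. The 3 whose intervals reached past a 2-fold change were Bcl2, Perp and Trp63, all low in these cultures. A further 8 reached past 1.5-fold, namely Apaf1, Bak1, Casp8, Eda2r, Fas, Phlda3, Plk3 and Pmaip1. The median log2 fold change was -0.02 over the 35 members and -0.0066 over all tested genes.

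**Figure D1:**
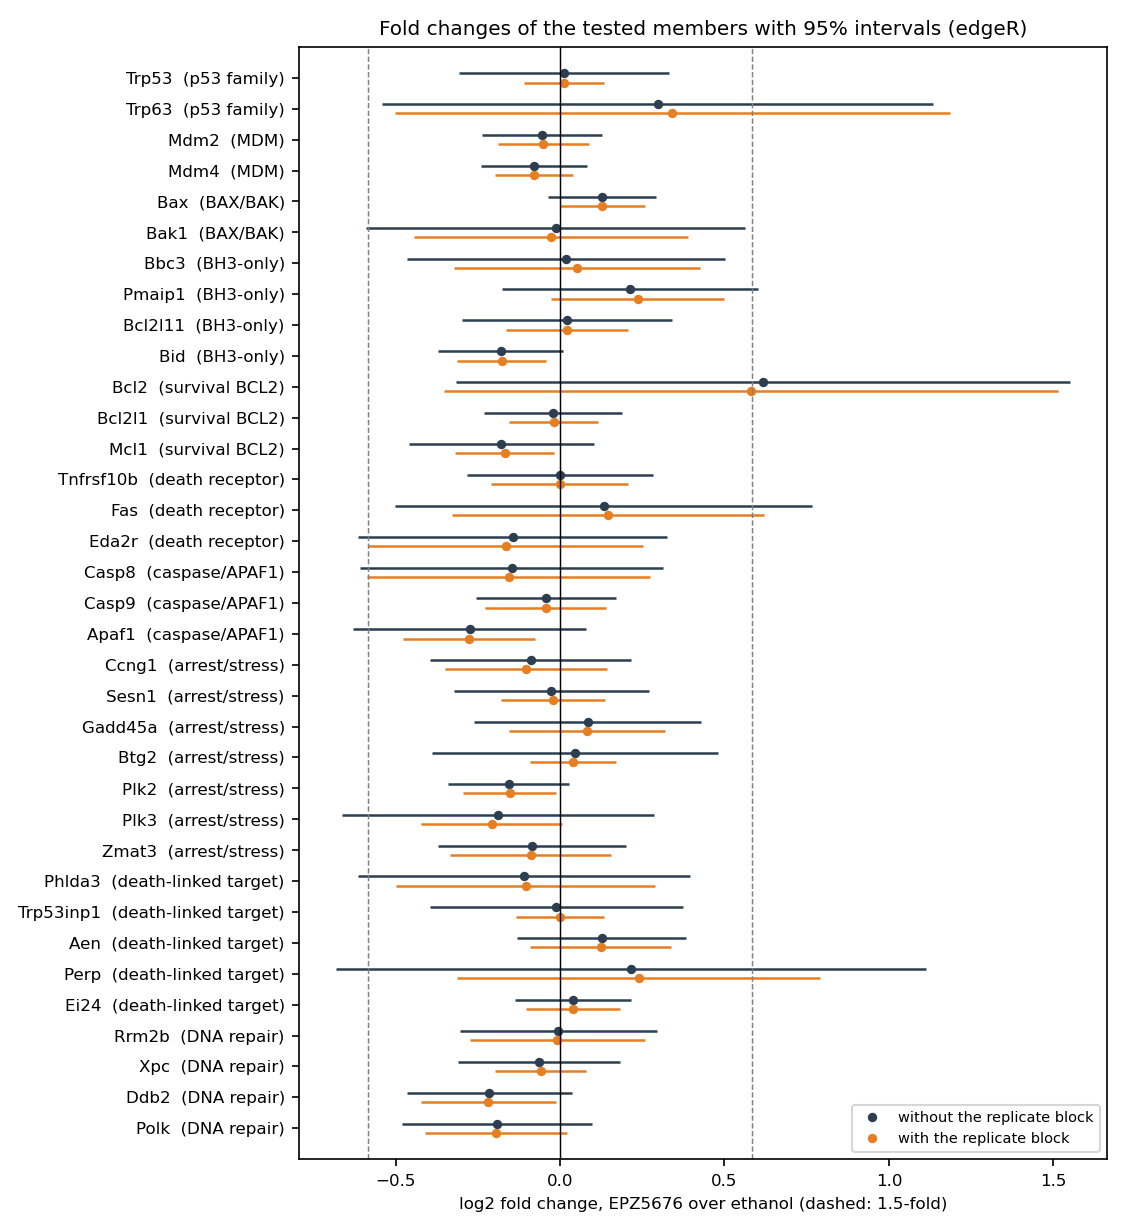
Log2 fold change (EPZ5676 over ethanol) of the 35 tested members, ordered by role. Its 95% interval was computed from the edgeR test without the replicate block (dark) and with it (orange). Dashed lines mark a 1.5-fold change. Intervals without the block all cross 0, and those of Bcl2, Trp63 and Perp are the widest.

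Trp53 RNA was abundant, and its group means differed by less than the spread between replicates. It stood at 112, 148 and 124 CPM in EPZ5676 replicates 1, 2 and 3 and at 109.9, 151 and 122 CPM in ethanol replicates 1, 2 and 3. The groups overlapped, and in each the highest library was replicate 2. The log2 fold change was 0.01 ± 0.14 (SE), with a 95% interval of -0.31 to 0.33 without the block and -0.11 to 0.13 with it. Its relatives Trp63 and Trp73, which share the p53 DNA-binding domain and are known in the female germline and in development, were at under 1 CPM. Trp63 had 9, 35 and 16 counts in the EPZ5676 libraries and 13, 6 and 11 in the ethanol libraries, and its interval of the log2 fold change, -0.54 to 1.14, reaches past a 2-fold change. Trp73, whose promoter pair is shown above, had 8, 25 and 3 counts in the EPZ5676 libraries and 11, 7 and 11 in the ethanol libraries, too few to test. Per kilobase of exon, Trp53 exceeded Trp63 by 518 to 794 times in EPZ5676 libraries and by 540 to 1461 times in ethanol libraries, ratios that rest on these few Trp63 counts.

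Mdm2, both the main inhibitor of p53 and a classical target of it, had the highest CPM of the members. It was at 303, 308 and 303 CPM in EPZ5676 replicates 1 to 3 and 304, 351 and 294 CPM in ethanol replicates 1 to 3. The EPZ5676 libraries were tightly grouped, at 305 ± 2.99 CPM (SD, n = 3), ethanol replicate 2 was the high library, and the groups overlapped. The log2 fold change was -0.06 ± 0.08 (SE), with an interval of -0.24 to 0.13. Mdm4, which binds and restrains p53 without being a strong ligase itself, was at 179, 185 and 199 CPM with EPZ5676 and 195, 195 and 205 CPM with ethanol, a log2 fold change of -0.08 ± 0.07 (SE), and its interval was -0.24 to 0.08. Mdm4 was lower with EPZ5676 in all 3 same-numbered pairs by small amounts, with log2 differences of -0.12, -0.07 and -0.04, and its adjusted p was 0.83.

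**Figure D2:**
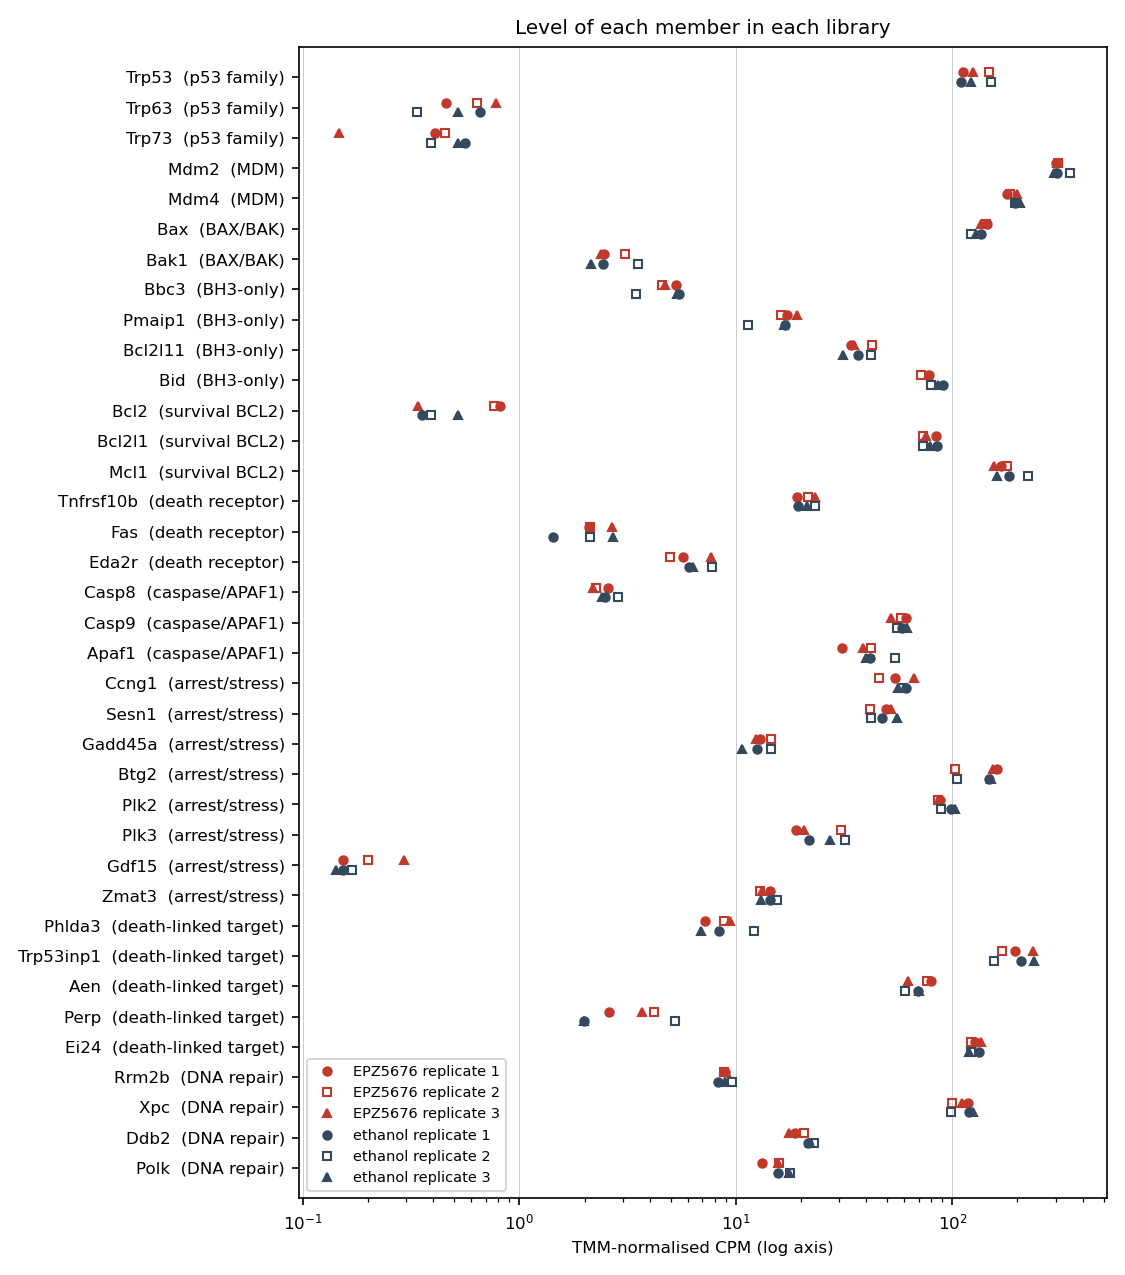
TMM-normalised CPM of all 37 members (log axis) in each library, EPZ5676 in red above ethanol in dark blue, with open squares for replicate 2. Gdf15, Trp63, Trp73 and Bcl2 lie under 1 CPM in every library, and Mdm2 is highest.

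Levels were compared between genes only per length, as CPM per kilobase of merged RefSeq-linked exons. On that scale the order of the most abundant members was Bax, Mdm2 and Trp53 in both groups. Bax averaged 163 ± 4.74 CPM per kb with EPZ5676 and 149 ± 7.65 with ethanol (SD, n = 3 each), Mdm2 98.3 ± 0.964 and 102 ± 9.70, and Trp53 68.7 ± 9.71 and 68.3 ± 11.3. These 3 did not overlap one another in any library of either group. Mcl1, Ei24 and Btg2 came next, at 37.4 to 65.7 CPM per kb over all libraries, and did not separate beyond their spread. At the low end Casp8 averaged 0.809 ± 0.0665 CPM per kb with EPZ5676 and 0.895 ± 0.0808 with ethanol, and Trp63, Trp73, Gdf15 and Bcl2 were all under 0.15 CPM per kb in both group means.

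The effectors of the mitochondrial route were very uneven. Bax, which forms pores in the outer mitochondrial membrane, was at 144, 143 and 136 CPM in EPZ5676 replicates 1 to 3 and 136, 123 and 129 CPM in ethanol replicates 1 to 3. The 3 EPZ5676 libraries were all above the 3 ethanol libraries, by a narrow gap between EPZ5676 replicate 3 and ethanol replicate 1. The difference of 0.13 ± 0.07 (SE) on the log2 scale had an interval of -0.04 to 0.29 (adjusted p = 0.733). Bak1, which forms pores in the same way, stood at 2.45, 3.08 and 2.39 CPM with EPZ5676 and 2.44, 3.53 and 2.14 CPM with ethanol, and its log2 fold change was -0.01 ± 0.25 (SE) with an interval of -0.59 to 0.56. Per kilobase, Bax exceeded Bak1 by 128 to 161 times in EPZ5676 libraries and by 95.7 to 166 times in ethanol libraries. Bak1 shares 256 exon bases with Ggnbp1 on the other strand in GENCODE M21. The library kit keeps strand, but whether counting used it is not given in the sources used here, and without it such reads cannot be told apart.

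Of the 4 BH3-only genes, none passed and their log2 fold changes had both signs. Bid, which links death receptors to mitochondria, was at 77.9, 71.8 and 77.0 CPM with EPZ5676 and 90.9, 79.7 and 86.1 CPM with ethanol. All 3 EPZ5676 libraries were below all 3 ethanol libraries. Its log2 fold change was -0.18 ± 0.08 (SE), with an interval of -0.37 to 0.01 (adjusted p = 0.674), and with the block it was -0.18 ± 0.06 (SE) (adjusted p = 0.181). The p53 targets Bbc3 (PUMA) and Pmaip1 (NOXA) are the BH3-only genes most closely tied to p53. Bbc3 was at 5.27, 4.54 and 4.73 CPM with EPZ5676 and 5.44, 3.47 and 5.36 CPM with ethanol, a log2 fold change of 0.02 ± 0.21 (SE), and its interval was -0.47 to 0.50. Pmaip1 was at 17.2, 16.2 and 19.1 CPM with EPZ5676 and 16.9, 11.4 and 16.8 CPM with ethanol. Its groups overlapped, its low library was ethanol replicate 2, and its log2 fold change was 0.21 ± 0.17 (SE) with an interval of -0.18 to 0.60, against 0.05 without ethanol replicate 2. Bcl2l11 (BIM), induced in many cells by loss of growth factor, averaged 37.2 ± 4.72 CPM in EPZ5676 cultures and 36.7 ± 5.48 CPM in ethanol cultures (SD, n = 3 each).

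Among the survival genes, Mcl1 and Bcl2l1 were abundant and Bcl2 itself was barely detected. Per kilobase, Mcl1 exceeded Bcl2 by 549 to 1224 times in EPZ5676 libraries and by 821 to 1535 times in ethanol libraries. Mcl1, a short-lived survival protein, was at 168, 178 and 156 CPM with EPZ5676 and 183, 225 and 160.1 CPM with ethanol. The groups overlapped, ethanol replicate 2 was the highest library, and the log2 fold change was -0.18 ± 0.12 (SE) with an interval of -0.46 to 0.10. With the block it was -0.17 ± 0.07 (SE), with an adjusted p of 0.231. Without ethanol replicate 2 the unblocked value was -0.04, and without ethanol replicate 3 it was -0.29. Bcl2l1, which encodes BCL-XL, averaged 77.7 ± 5.66 CPM in EPZ5676 cultures and 78.8 ± 5.90 CPM in ethanol cultures (SD, n = 3 each), with an interval of -0.23 to 0.19 for the log2 fold change. On the same scale Mcl1 was 1.57 to 1.91 times the level of Bcl2l1 in EPZ5676 libraries and 1.61 to 2.43 times in ethanol libraries. Bcl2 had 16, 42 and 7 counts in EPZ5676 replicates 1 to 3 and 7, 7 and 11 in ethanol replicates 1 to 3. EPZ5676 replicates 1 and 2 were the high libraries in CPM and EPZ5676 replicate 3 the lowest, the log2 fold change was 0.62 ± 0.41 (SE), and the interval of -0.32 to 1.55 is the widest of all members.

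The death receptors and the caspase genes did not pass either. Tnfrsf10b, the single mouse TRAIL death receptor and a p53 target, averaged 21.3 ± 1.98 CPM in EPZ5676 cultures and 21.3 ± 1.99 CPM in ethanol cultures (SD, n = 3 each), and its interval was -0.28 to 0.28. Fas, the receptor for FAS ligand, was at 2.10, 2.12 and 2.68 CPM with EPZ5676 and 1.42, 2.13 and 2.71 CPM with ethanol, with an interval of -0.50 to 0.76. Eda2r, a TNF receptor family member induced by p53, was at 5.68, 4.95 and 7.65 CPM with EPZ5676 and 6.05, 7.73 and 6.31 CPM with ethanol. Its log2 differences of -0.09, -0.64 and 0.28 in pairs 1, 2 and 3 had both signs. Casp8, the initiator caspase of the receptor route, was low, with a mean of 2.34 ± 0.192 CPM with EPZ5676 and 2.59 ± 0.234 CPM with ethanol.

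Apaf1, the scaffold of the apoptosome, had the largest negative log2 fold change of the members with all 6 libraries in the fit. It was at 31.1, 42.3 and 38.6 CPM in EPZ5676 replicates 1 to 3 and 41.5, 54.3 and 40.1 CPM in ethanol replicates 1 to 3. The groups overlapped, because EPZ5676 replicate 2 exceeded ethanol replicates 1 and 3, yet each EPZ5676 library was below its same-numbered ethanol library, by log2 differences of -0.42, -0.36 and -0.05. The log2 fold change was -0.27 ± 0.15 (SE), with an interval of -0.63 to 0.08 and an adjusted p of 0.727 in edgeR's test without the block, and -0.28 ± 0.09 (SE), with an interval of -0.48 to -0.08 and an adjusted p of 0.164, with it. In the blocked edgeR fit without pair 3, which has 1 residual degree of freedom, Apaf1 was called lower at -0.39 with an adjusted p of 0.0199, in a fit that called 761 genes in all. The blocked log2 fold change was -0.21 without pair 1 (adjusted p = 0.704) and -0.23 without pair 2 (adjusted p = 0.19). In the unblocked fit it was -0.13 without ethanol replicate 2, where Bid stood at -0.23 and Plk2 at -0.22, and -0.16 without EPZ5676 replicate 1, where Bid stood at -0.20. Casp9, the caspase that APAF1 activates, averaged 56.9 ± 4.51 CPM in EPZ5676 cultures and 58.7 ± 3.15 CPM in ethanol cultures (SD, n = 3 each), with an interval of -0.26 to 0.17. Casp9 shares 94 exon bases with Cela2a on the other strand.

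Targets linked to cell cycle arrest and stress likewise gave 0 calls, with log2 fold changes between -0.19 and 0.08 for the 7 tested. Plk2, a polo-like kinase induced by p53, was at 87.9, 85.5 and 86.7 CPM with EPZ5676 and 98.6, 88.8 and 102 CPM with ethanol. All EPZ5676 libraries were below all ethanol libraries, and the EPZ5676 values were the more tightly grouped. Its log2 fold change was -0.16 ± 0.08 (SE), with an interval of -0.34 to 0.03 and an adjusted p of 0.703. Its relative Plk3 was at 19.0, 30.6 and 20.7 CPM with EPZ5676 and 21.7, 31.9 and 27.1 CPM with ethanol, with replicate 2 the highest library of each group. Plk3 had a log2 fold change of -0.19 ± 0.21 (SE) without the block and -0.21 ± 0.09 (SE) with it, and adjusted p of 0.872 and 0.283 in the edgeR test. Leaving out 1 library moved the unblocked value by over 1.5 times in 5 of 6 cases, to -0.44 without EPZ5676 replicate 2, -0.06 and -0.11 without EPZ5676 replicates 1 and 3, and -0.32 and -0.05 without ethanol replicates 1 and 2. Plk3 shares 84 exon bases with Tctex1d4 on the other strand.

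Ccng1 (cyclin G1), among the most direct p53 targets and the member with the pair nearest to the consensus, was at 54.2, 45.8 and 66.3 CPM with EPZ5676 and 61.3, 59.1 and 56.2 CPM with ethanol. The EPZ5676 libraries spread on both sides of the ethanol libraries, and the log2 fold change was -0.09 ± 0.13 (SE) with an interval of -0.40 to 0.22. Sesn1, a stress-induced regulator of TORC1, and Gadd45a, a stress sensor, also have a pair. Sesn1 averaged 47.7 ± 5.25 CPM with EPZ5676 and 48.4 ± 6.88 CPM with ethanol, and Gadd45a 13.3 ± 1.16 and 12.6 ± 1.89 CPM (SD, n = 3 each). Their intervals were -0.32 to 0.27 and -0.26 to 0.43. Gadd45a shares 238 exon bases with E230016M11Rik on the other strand. Btg2, an antiproliferative p53 target, was at 160.4, 103 and 154 CPM with EPZ5676 and 147, 105 and 151 CPM with ethanol, low in replicate 2 of both groups, and its interval was -0.39 to 0.48 without the block and -0.09 to 0.17 with it. Zmat3, an RNA-binding p53 target, had a log2 fold change of -0.09 ± 0.12 (SE). Gdf15, a secreted stress cytokine, had only 3, 11 and 6 counts in the EPZ5676 libraries and 3, 3 and 3 in the ethanol libraries, too few to test.

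The 5 targets linked to death had log2 fold changes between -0.11 and 0.22. Trp53inp1, a stress-induced p53 cofactor, was at 194, 169 and 236 CPM with EPZ5676 and 207, 156 and 239 CPM with ethanol, with replicate 2 the lowest and replicate 3 the highest library of each group. Its log2 fold change was -0.01 ± 0.17 (SE), with an interval of -0.40 to 0.37 without the block and -0.14 to 0.13 with it. Aen, an apoptosis-enhancing nuclease, averaged 72.9 ± 9.06 CPM with EPZ5676 and 66.8 ± 5.27 CPM with ethanol, and Ei24, an endoplasmic reticulum protein gene induced by p53, 128 ± 6.70 and 125 ± 6.85 CPM (SD, n = 3 each). Phlda3, a p53-induced repressor of AKT, was at 7.21, 8.80 and 9.36 CPM with EPZ5676 and 8.39, 12.2 and 6.93 CPM with ethanol. Perp, a desmosomal p53 target of epithelia, was at 2.61, 4.17 and 3.70 CPM with EPZ5676 and 1.98, 5.21 and 1.99 CPM with ethanol, so ethanol replicate 2 was the highest of all and the other 2 ethanol libraries the lowest. Its interval was -0.68 to 1.11.

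The 4 DNA repair targets had negative log2 fold changes, between -0.22 and -0.0057, and none passed. Ddb2, which recognises ultraviolet damage for nucleotide excision repair, was at 18.8, 20.6 and 17.7 CPM with EPZ5676 and 21.5, 22.9 and 22.0 CPM with ethanol. All EPZ5676 libraries were below all ethanol libraries. The log2 fold change was -0.22 ± 0.11 (SE), with an interval of -0.47 to 0.04, adjusted p = 0.701 unblocked and 0.249 blocked in edgeR's test. Ddb2 shares 621 exon bases with Acp2 on the other strand. Polk, a translesion DNA polymerase, was at 13.2, 15.8 and 15.6 CPM with EPZ5676 and 15.7, 17.7 and 17.6 CPM with ethanol, overlapping by a small margin, and differed by -0.19 ± 0.13 (SE) on the log2 scale (adjusted p = 0.769). Xpc, the other damage recognition gene of excision repair, averaged 109.6 ± 9.08 CPM with EPZ5676 and 115 ± 13.6 CPM with ethanol. Rrm2b, the p53-induced ribonucleotide reductase subunit, averaged 8.89 ± 0.0742 and 8.93 ± 0.644 CPM (SD, n = 3 each), with a log2 fold change of -0.01 and an interval of -0.31 to 0.29.

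**Figure D3:**
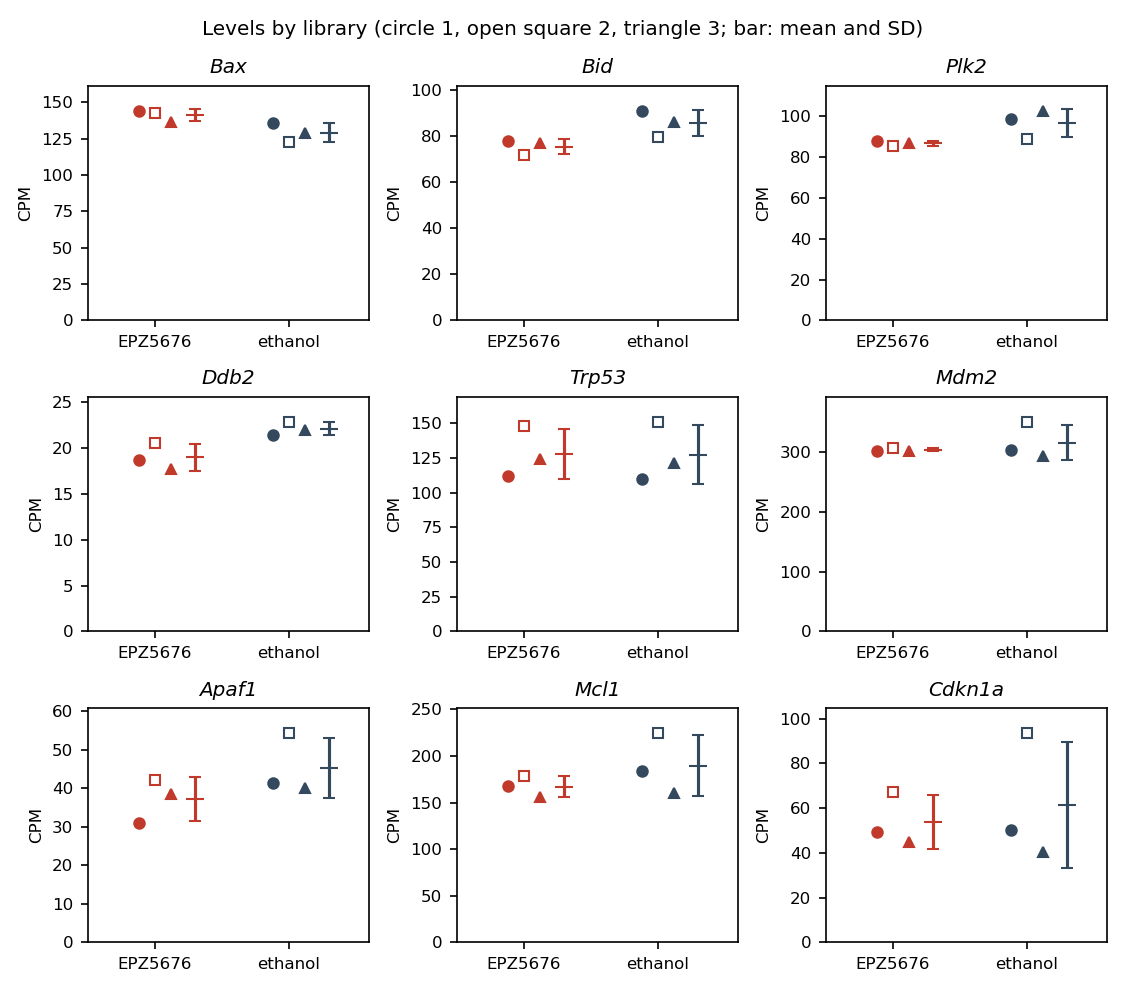
CPM in each library for the 4 members whose groups did not overlap (Bax, Bid, Plk2, Ddb2), for Trp53, Mdm2, Apaf1 and Mcl1, and for Cdkn1a, with EPZ5676 left of ethanol; the bar beside each group is the mean with its SD (n = 3), and each axis starts at 0. Replicate 2 (open square) is the highest library of each group for Ddb2, Trp53, Mdm2, Apaf1, Mcl1 and Cdkn1a.

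Groups did not overlap for 4 of 35 members (11.4%), against 14.9% of all tested genes. Of these, 1 was higher (Bax), against 7.22% of all tested genes, and 3 were lower (Bid, Plk2 and Ddb2), against 7.64%. The sign was the same in all 3 pairs for 11 of 35 (31.4%), against 41.8% of all tested genes, with 3 higher (Bax, Gadd45a and Pmaip1) and 8 lower (Apaf1, Bid, Ddb2, Mcl1, Mdm4, Plk2, Plk3 and Polk). In the blocked fit 5 of 35 (14.3%) had an unadjusted p under 0.05, against 18.5% of all tested genes. All 5 were lower, namely Apaf1, Bid, Mcl1, Plk2 and Ddb2, where the background was 9.01% higher and 9.51% lower, and their unadjusted p ran from 0.0123 to 0.0395. Over the 35, 21 log2 fold changes were negative (60%), against 51.7% of all tested genes.

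The other genes of the pathway, in 3 lists that share no gene with the members, also gave 0 calls in either edgeR fit over all 6 libraries, though some blocked alternatives called between 1 and 10 of their 70 tested genes. These lists were chosen with earlier results of these data known, so their shares are a description and no independent evidence of a shift. Of 20 further p53 targets, 0 passed, and the median log2 fold change was -0.14 against -0.0066 for all tested genes, with 14 of 20 negative (70%, against 51.7%). In the blocked fit 7 of the 20 (35%) had an unadjusted p under 0.05, 2 higher and 5 lower, against 18.5% of all tested genes, and 4 of 20 (20%) did not overlap between groups, all lower, against 14.9%. Cdkn1a, which encodes the cell cycle inhibitor p21 and is the best known p53 target, was at 49.1, 67.4 and 45.0 CPM with EPZ5676 and 50.2, 93.5 and 40.5 CPM with ethanol. Replicate 2 was the highest library of each group, and the log2 fold change of -0.18 ± 0.29 (SE) had an interval of -0.85 to 0.49. Epha2, an ephrin receptor gene, came nearest to the threshold in the blocked fit. It was at 137, 247 and 86.3 CPM with EPZ5676 and 186, 287 and 124 CPM with ethanol, lower with EPZ5676 in each pair by log2 differences of -0.44, -0.22 and -0.53, with adjusted p = 0.878 unblocked and 0.0504 blocked in edgeR's test. Sesn2, a sestrin related to Sesn1, Sertad3 and Tigar, a regulator of glycolysis, had groups that did not overlap and log2 fold changes of -0.30, -0.44 and -0.23, with adjusted p of 0.1, 0.115 and 0.129 in the blocked fit.

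Of 20 tested genes that act on p53, 0 passed and the median log2 fold change was -0.0056. Unadjusted blocked p was under 0.05 for 3 of them (15%), 1 higher and 2 lower, against 18.5% of all tested genes. Groups did not overlap for 3 (15%), 2 higher and 1 lower, against 14.9% of all tested genes. Prkdc, the catalytic subunit of DNA-dependent protein kinase, was at 252, 228 and 289.7 CPM with EPZ5676 and 215, 197 and 222 CPM with ethanol, all EPZ5676 libraries above all ethanol libraries, with adjusted p = 0.625 unblocked and 0.0721 blocked. Chek1, a checkpoint kinase gene, was at 64.6, 76.6 and 68.1 CPM with EPZ5676 and 77.2, 84.1 and 76.6 CPM with ethanol, a log2 fold change of -0.18 ± 0.09 (SE). Chek2, another checkpoint kinase, and Gtse1, which moves p53 out of the nucleus, had log2 fold changes of -0.22 and -0.16 with overlapping groups. Of 30 tested further apoptosis genes, 0 passed and the median was -0.02. Unadjusted blocked p was under 0.05 for 8 of them (26.7%), 2 higher and 6 lower, against 18.5% of all tested genes. Groups did not overlap for 7 (23.3%), 3 higher and 4 lower, against 14.9% of all tested genes. Diablo, which encodes an antagonist of caspase inhibitors, was at 214, 195 and 219.8 CPM with EPZ5676 and 186, 166 and 189.5 CPM with ethanol, with an adjusted p of 0.0944 in the blocked fit. Casp2 and Casp6, caspase genes, and Tnfrsf1a, a TNF receptor gene, had log2 fold changes of 0.19, -0.36 and -0.24, and adjusted p of 0.146, 0.144 and 0.175 with the block.

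**Figure D4:**
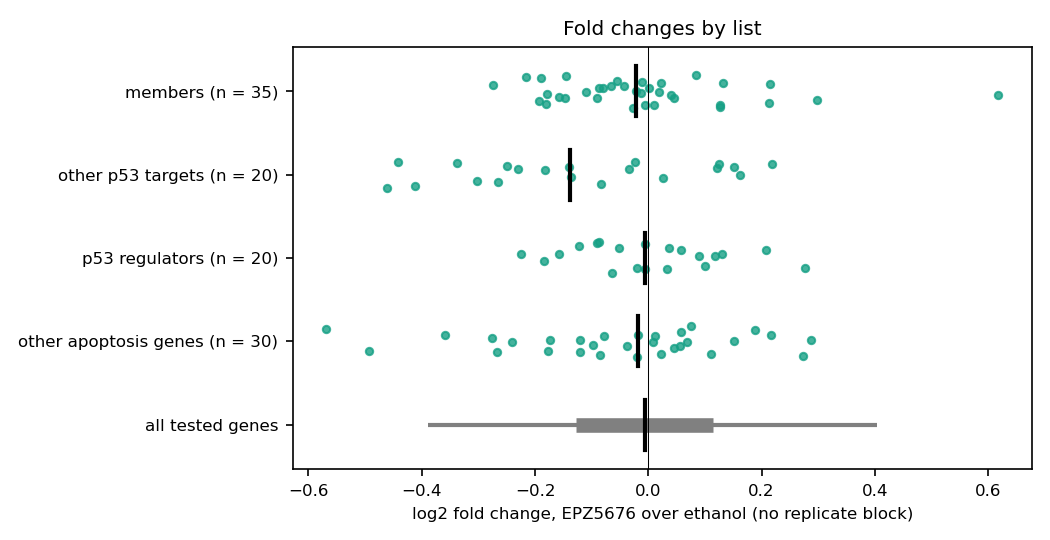
Log2 fold change (EPZ5676 over ethanol, without the replicate block) of each tested gene in the 4 lists, with a black bar at the list's median; for all tested genes the thick grey bar spans the 25th to 75th percentile and the thin one the 5th to 95th percentile, -0.39 to 0.40. The lists lie mostly within that span, and the further p53 targets have the lowest median, -0.14. All 4 lists were chosen with earlier results of these data known.

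Several members differed between replicate 2 and the other cultures in both groups alike. Replicate 2 was compared with the mean of replicates 1 and 3 within each group, as a description with no test. The difference passed 0.25 on the log2 scale in the same direction in both groups for 9 of 35 members (25.7%), against 13.2% of all tested genes higher and 10.4% lower, so the members' share is near that of all genes. The 6 higher in replicate 2 were Trp53, Bak1, Bcl2l11, Apaf1, Plk3 and Perp, and the 3 lower were Btg2, Sesn1 and Trp53inp1. For Trp53 the log2 difference was 0.32 in EPZ5676 cultures and 0.38 in ethanol cultures, and for Plk3 it was 0.62 in EPZ5676 cultures and 0.39 in ethanol cultures. For Perp it was 0.40 in EPZ5676 cultures and 1.39 in ethanol cultures. Btg2 was lower in replicate 2, by log2 differences of -0.62 in EPZ5676 cultures and -0.50 in ethanol cultures, and Trp53inp1 had -0.35 in EPZ5676 cultures and -0.52 in ethanol cultures. Bbc3 and Pmaip1 were low mainly in ethanol replicate 2, with -0.14 in EPZ5676 cultures and -0.64 in ethanol cultures for Bbc3 and -0.17 in EPZ5676 cultures and -0.56 in ethanol cultures for Pmaip1. The fibroblast marker sum given above was highest in the same replicate 2 libraries, and its part in these differences was not tested.

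**Figure D5:**
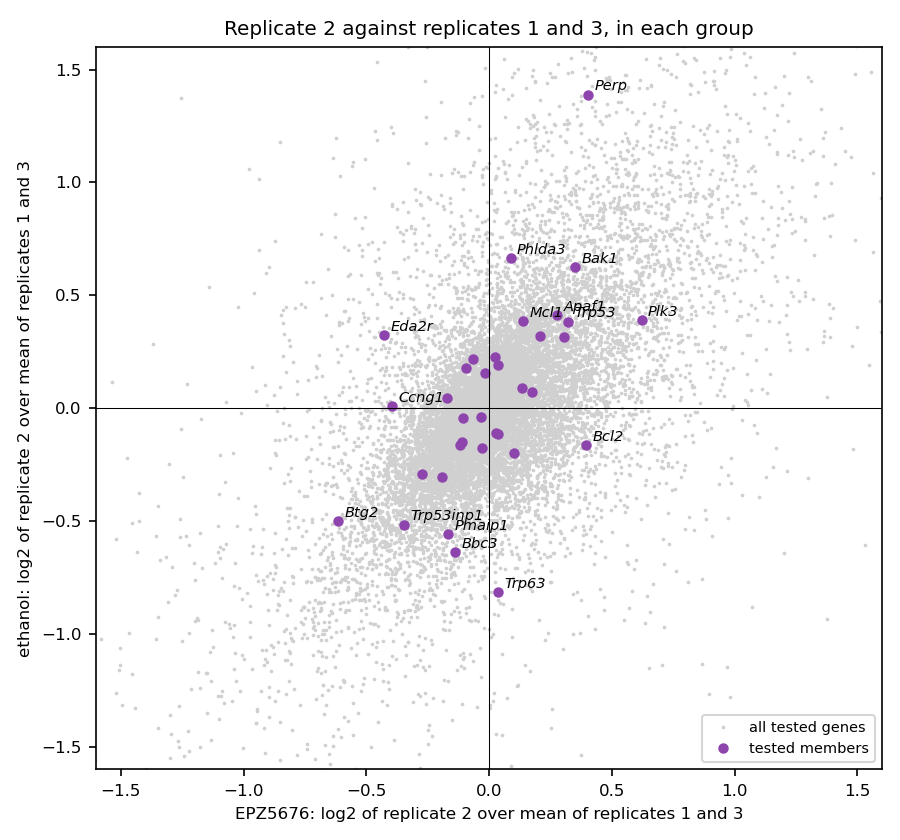
Log2 of replicate 2 over the mean of replicates 1 and 3, in EPZ5676 cultures (x axis) and in ethanol cultures (y axis), for the 35 tested members (purple) and all tested genes (grey; some lie outside the axes). Trp53, Plk3, Bak1, Apaf1 and Perp are above 0 on both axes, and Btg2 and Trp53inp1 below 0 on both.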

How the data were processed

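RNA of EPZ5676-treated and ethanol-treated cells was made into stranded mRNA libraries, 3 a group, per the labels' protocols. The deposited table gives raw counts for each gene symbol. STAR, featureCounts, edgeR, Bowtie and build mm9 are named in the submitters' processing notes, without versions or roles, and the sources used here do not give the annotation, the strand setting or how multi-mapping reads were handled. Groups and replicate numbers came from the sample titles. The repeat family table was not used here.

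Genes passing filterByExpr (14855) were tested with edgeR 4.0.16 in R 4.3.3, with TMM, glmQLFit and glmQLFTest, 2-sided, and Benjamini-Hochberg adjustment at 0.05. Levels are CPM after TMM, and intervals are per gene and not adjusted. The SE was computed as the size of the log2 fold change over the square root of the test's F statistic. Intervals use a t quantile on the test's total degrees of freedom. Alternatives were the replicate number as a block, limma-voom (limma 3.58.1), DESeq2 1.42.0, other scalings and filters, and libraries left out. The methods were also run on simulated counts with shared differences by replicate number built in, so that run cannot show whether the block is right. Deviations from the group mean correlated across genes at 0.468, 0.639 and 0.373 for same-numbered libraries 1, 2 and 3, and at -0.542 to 0.318 for other combinations, so the numbers were taken as pairs from the data, not from the labels. Only replicate 2 was clearly matched. EPZ5676 replicate 1 with ethanol replicate 3 gave 0.318, near the 0.373 of the replicate 3 libraries. Deviations within a group sum to 0, so the pairing of replicates 1 and 3 is less certain. No pair of libraries agreed within sampling noise (smallest chi-square per degree of freedom 3.64).

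The members and lists were chosen with earlier results of these data known. Values in every library are given for Trp53, Mdm2 and Mdm4, members that do not overlap between groups, the 8 with the smallest blocked p and those under the filter. Of the other lists, Cdkn1a and up to 4 genes with the smallest blocked p are named. Values of Trp63, Bcl2, Bak1, Bbc3, Pmaip1, Fas, Eda2r, Ccng1, Btg2, Trp53inp1, Phlda3 and Perp in every library are added for description, chosen after their values were seen. Exon lengths and overlaps came from GENCODE M21 on GRCm38, another build than mm9, and serve only for levels per kilobase and to name overlapping genes. Promoter sequences are from RefSeq on GRCm38.p6.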

Additional observations from a re-analysis of the deposited data

How the results depend on the processing

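Across the 21 alternatives, 657 of 733 log2 fold changes of members kept the sign of the reported value without a call, 75 had the other sign and 1 was called; 14 of the 35 members kept their sign throughout. Of the 21 members with a change of sign, none had a reported log2 fold change larger than 0.22 in size. The replicate block raised the count of all called genes to 97, against 0 without it, and called 0 members. In the blocked fit the count was 0, 795 and 761 genes without pair 1, 2 and 3, and it was 293 with DESeq2, 163 with DESeq2 size factors, 193 with library totals and 445 with no filter. Without the block it was 50 with DESeq2 and 10 without both replicate 2 libraries. Member calls were 1 in the blocked fit without pair 3 (Apaf1) and 0 in the other alternatives, with 7 members left without an adjusted p by blocked DESeq2. Genes of the 3 other lists called with the block numbered 10 without pair 2, 1 without pair 3, 2 with DESeq2, 1 with DESeq2 size factors, 1 with library totals and 3 with no filter; the cause was not tested.

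Log2 fold changes with the other sign were as follows. With the replicate block they were -0.0018 for Tnfrsf10b, with DESeq2 in that design -0.0012 for Tnfrsf10b, with its size factors -0.0017 for Tnfrsf10b, with library totals -0.00063 for Trp53 and -0.013 for Tnfrsf10b, and with no filter 0.0090 for Trp53inp1 and 0.0023 for Rrm2b. Of blocked fits without a pair, leaving out pair 1 gave -0.0082 for Fas, -0.0031 for Btg2 and 0.047 for Trp53inp1. Leaving out pair 2 gave 0.017 for Mdm2, 0.084 for Bak1, -0.11 for Bbc3, 0.10 for Eda2r, 0.033 for Ccng1, 0.0074 for Zmat3, 0.11 for Phlda3 and 0.054 for Rrm2b. Leaving out pair 3 gave -0.046 for Bcl2l11, 0.0024 for Bcl2l1, -0.056 for Tnfrsf10b, 0.059 for Casp9, 0.022 for Sesn1, 0.010 for Trp53inp1, -0.047 for Perp and -0.028 for Ei24. Without the block they were -0.00082 for Tnfrsf10b with a filter at 1 CPM, -0.010 for Tnfrsf10b with library totals, 0.0045 for Rrm2b with no filter, and 0.052 for Bak1 and -0.0042 for Btg2 with limma-voom. Without both replicate 2 libraries they were 0.017 for Mdm2, 0.083 for Bak1, -0.11 for Bbc3, 0.11 for Eda2r, 0.037 for Ccng1, 0.0073 for Zmat3, 0.12 for Phlda3 and 0.053 for Rrm2b. With each library left out in turn, the log2 fold change ran over -0.11 to 0.15 for Trp53, -0.10 to 0.021 for Mdm2, -0.16 to 0.22 for Bak1, -0.17 to 0.12 for Bbc3, -0.090 to 0.13 for Bcl2l11, -0.082 to 0.035 for Bcl2l1, -0.066 to 0.069 for Tnfrsf10b, -0.080 to 0.37 for Fas, -0.094 to 0.014 for Casp9, -0.24 to 0.034 for Ccng1, -0.12 to 0.088 for Sesn1, -0.020 to 0.19 for Gadd45a, -0.11 to 0.23 for Btg2, -0.28 to 0.14 for Phlda3, -0.17 to 0.13 for Trp53inp1, -0.020 to 0.83 for Perp, -0.0029 to 0.085 for Ei24, -0.056 to 0.042 for Rrm2b and -0.16 to 0.00068 for Xpc. Among members that kept their sign, it ran over -0.38 to -0.13 for Apaf1, -0.29 to -0.04 for Mcl1, -0.44 to -0.05 for Plk3, 0.05 to 0.31 for Pmaip1, -0.25 to -0.12 for Polk, -0.13 to -0.05 for Mdm4, -0.21 to -0.08 for Casp8, 0.06 to 0.22 for Aen and 0.08 to 0.53 for Trp63. Where a group is left with fewer libraries, they are assumed to vary like the others. Depth limits Trp63, Trp73, Gdf15 and Bcl2, with at most 42 counts in any library.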
